A study of Homo sapiens with 6 samples.

Results

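Glycolysis and the transcriptional response to low oxygen were followed through 37 genes in HaCaT keratinocytes after knockdown of TP63. The genes came from a list of names chosen with earlier results of these data known. It holds 17 enzymes on the way from glucose to lactate and 7 kinases that set the flux through the pathway. The other 13 are genes of oxygen sensing or targets of hypoxia-inducible factors (HIF). Of the 37 genes, 36 had a probe set assigned to 1 gene among the 18404 genes tested. The exception was PGAM1, a phosphoglycerate mutase, whose 4 probe sets are assigned to several genes, so no value is given for it.

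HaCaT is an immortalised human keratinocyte line. Its RNA was collected 72 hours after a lentivirus had carried a short hairpin RNA into the cells and was read on 6 arrays, 3 from cells that received a control vector (shControl) and 3 from cells that received a hairpin against TP63 (shTP63), the gene of the epithelial transcription factor p63. All 6 samples therefore went through lentiviral delivery. The labels name 1 hairpin target and do not say how many hairpin sequences were used, and they list several culture media and no oxygen level without tying a medium to a sample. TP63 itself was not analysed here, so each direction rests on the labels. No label says whether replicates were separate cultures, so p-values describe a spread between samples that may be technical only.

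Glycolysis converts glucose to pyruvate in the cytosol, and lactate dehydrogenase turns pyruvate into lactate. When oxygen is scarce, prolyl hydroxylases no longer mark the HIF alpha subunits for destruction, and HIF raises the transcription of many glycolytic enzymes together with genes of mitophagy, collagen modification and oxygen sensing itself. Pyruvate dehydrogenase kinases then keep pyruvate out of the citric acid cycle. The epidermis holds no blood vessels of its own, and keratinocytes are known for high glycolytic activity.

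On these arrays, values are intensities on a log2 scale and differences are shTP63 minus shControl. The median array level over all probe sets was 7.44 to 7.57. It averaged 7.45 in shControl and 7.56 in shTP63, so the shTP63 arrays were brighter by this measure. The median standard error (SE) of a gene's difference was 0.053. As a measure of background, the 95th percentile of the mean levels of 340 olfactory receptor genes was 6.76, and all 36 genes lay above it. Keratinocyte markers were bright, from 12.08 for LAMB3 to 13.82 for KRT5 in shControl. All 6 that were measured were called: KRT5 fell by 0.50, KRT14 by 0.35, DSG3 by 0.31 and SFN by 0.60, while ITGB4 rose by 0.21 and LAMB3 by 0.33. Markers of other cell types were dimmer and not all near background. In shControl the 6 fibroblast markers ran from 6.42 (DCN) to 8.40 (COL1A1), the 3 melanocyte markers from 4.67 (TYR) to 6.94 (PMEL), the 3 blood cell markers from 4.31 (PTPRC) to 7.0 (CD79A) and the 3 endothelial markers from 5.41 (PECAM1) to 9.50 (CDH5). Of these, COL1A1 rose by 0.18 and PMEL by 0.25, while DCN fell by 0.26 and VWF by 0.18. The part of these marker changes in the other results was not tested. RefSeq places other genes over or antisense to several of them, among these PDK2 (SAMD14, PDK2-AS1), PFKFB2 (YOD1), PFKFB3 (PFKFB3-AS1), PDK1 (PDK1-AS1), PFKM (SENP1), P4HA2 (P4HA2-AS1) and HIF1A (HIF1A-AS1), and signal from those transcripts was not separated here. Calls come from limma's moderated test with Benjamini-Hochberg adjustment over all genes at a threshold of 0.05. By that rule 41.5% of all genes were called, 16.4% as rises and 25.1% as falls, and in 51.4% of all genes the values of the groups did not overlap.

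Among the 36 genes, 5 rose, 16 fell and 15 did not pass (58.3% called), and in 29 the groups did not overlap. The largest fall was that of ALDOC, an aldolase, and the largest rise that of ERO1A, an oxidase of the endoplasmic reticulum. The median difference was -0.12, beside -0.01 over all genes. These genes were bright, and when all genes were cut into 5 equal bins by level, 20 of the 36 lay in the brightest, where 69.3% of all genes were called and the median difference was -0.10. In that bin 4 of the 20 rose and 9 fell. In bulk RNA, fewer cells expressing a gene and less RNA per cell cannot be told apart.

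**Figure D1:**
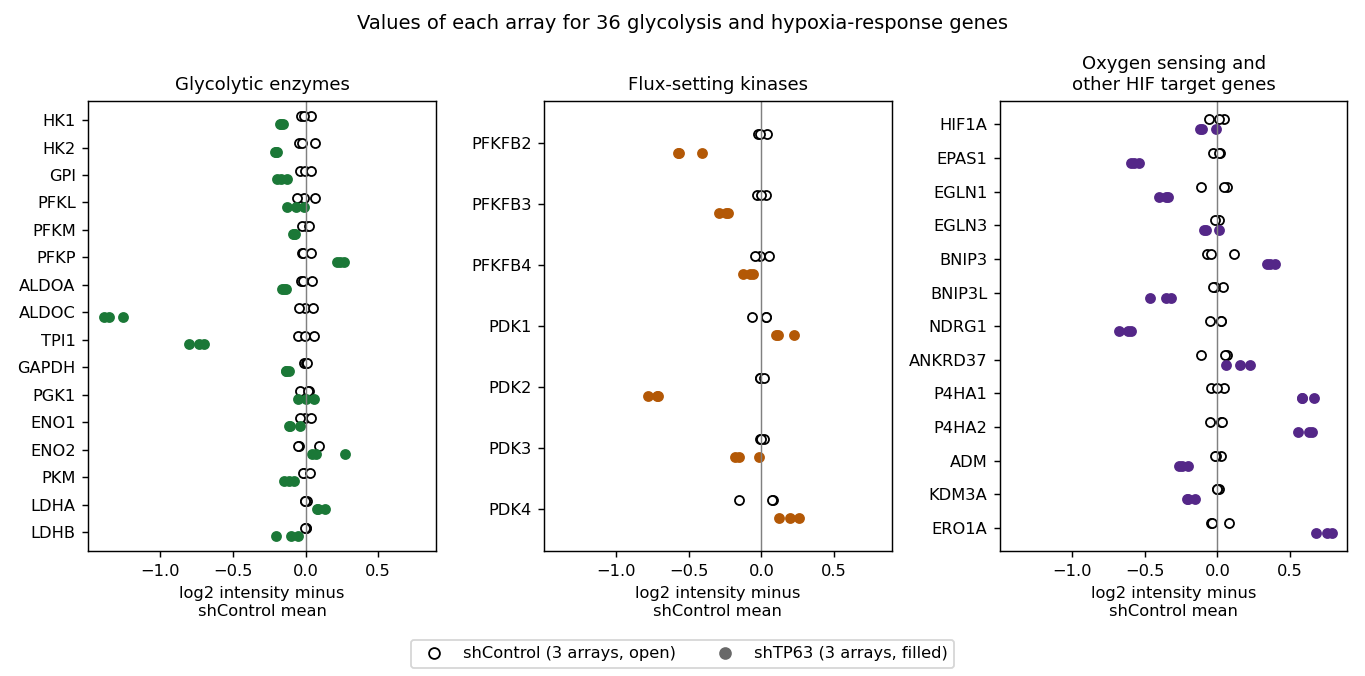
Log2 intensity of each array minus the mean of the shControl arrays (horizontal axis) for 36 genes in 3 panels, with open circles for the 3 shControl arrays and filled circles for the 3 shTP63 arrays. ALDOC and TPI1 stand apart among the glycolytic enzymes, most of which lie close to 0, whereas the third panel has filled circles well to the left (NDRG1, EPAS1) and well to the right (ERO1A, P4HA1, P4HA2).

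Of 16 glycolytic enzymes measured, 1 rose, 7 fell and 8 did not pass. The 43.8% that fell compares with 25.1% of all genes and with 1618 falls among 3681 genes (44.0%) in the brightest bin, which held 12 of the 16. In those 12 genes there were 5 falls and 1 rise. The list's median difference of -0.12 lay near the bin's median of -0.10. Without shControl replicate 3, or without shTP63 replicate 2, 4 of the enzymes fell.

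ALDOC encodes aldolase C, which splits fructose 1,6-bisphosphate and is best known from brain. Its values were 10.68, 10.64 and 10.74 in shControl and 9.30, 9.33 and 9.44 in shTP63. Each shTP63 value lay more than 1 log2 unit under the shControl values. The mean went from 10.69 ± 0.048 to 9.36 ± 0.070 (SD, n = 3), and ALDOC fell by 1.33 in log2 units (SE 0.051, limma adjusted p = 6.21e-07), or 2.51-fold, which ranks as fall number 11 of 18404 genes. ALDOA, the aldolase of most tissues, fell by 0.15 (SE 0.043, limma adjusted p = 0.0216), from 11.22 ± 0.040 to 11.07 ± 0.016. ALDOA no longer passed when shControl replicate 3 was left out (adjusted p = 0.0928), when shTP63 replicate 2 was left out (adjusted p = 0.0642), under cyclic loess (adjusted p = 0.261) or under quantile normalization over probe sets with 1 gene (adjusted p = 0.0799). ALDOC thus fell by 1.18 ± 0.046 (SE) more than ALDOA. Here and below, the SE of a gap between 2 genes is pooled from that pair's own arrays. It is not moderated by limma as the SE of a single gene is, so the 2 kinds of SE are not to be compared.

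TPI1 encodes triosephosphate isomerase, which interconverts the pair of sugars that aldolase makes. It had 2 probe sets of 1 gene, and they did not move alike. The brighter, 8180371, read 12.11, 12.16 and 12.22 in shControl and 11.46, 11.36 and 11.43 in shTP63, with no overlap. In the fit over genes it fell by 0.74 (SE 0.050, limma adjusted p = 9.39e-06), or 1.67-fold, fall number 180 of all genes. In the fit over all 32321 probe sets its SE was 0.052 and its limma adjusted p 0.000241. The dimmer, 7953508, read 7.16, 6.81 and 6.85 in shControl and 7.02, 7.24 and 7.39 in shTP63, so the groups overlapped. Its difference was 0.28 (SE 0.127), and it did not pass in the fit over all 32321 probe sets (limma adjusted p = 0.145), in which 34.8% of probe sets passed. Its level was close to the background measure of 6.76, and where on the transcript each probe set lies was not analysed here. With both probe sets averaged, TPI1 fell by 0.23 (limma adjusted p = 0.0124). RefSeq lists 4 pseudogenes named after TPI1, and the gene overlaps SPSB2, so how much of either signal comes from TPI1 transcripts is uncertain.

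**Figure D2:**
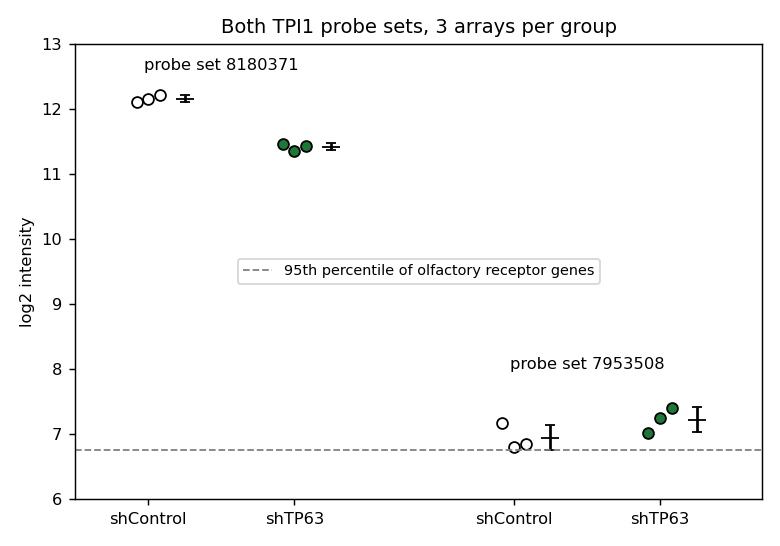
Log2 intensity (vertical axis) of the 3 arrays of each group for both TPI1 probe sets, with the mean and SD beside the points and the 95th percentile of olfactory receptor genes as a dashed line. The bright probe set is lower in all 3 shTP63 arrays, at 11.36 to 11.46, and the dim one lies near the dashed line at 6.76 with overlapping groups.

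The promoters of ALDOC and TPI1 are shown because these were the largest falls among the enzymes. Each is the stretch of 250 bases before the RefSeq start (GRCh38.p14), written 5′ to 3′ in the direction of the gene, for ALDOC chr17:28576896-28577145, minus strand and for TPI1 chr12:6867281-6867530, plus strand. Capitals mark ACGTG and GCGTG, the core letters that HIF reads, on either strand (CACGT and CACGC as reverse complements); the palindrome CACGTG holds ACGTG on both strands.
ALDOC: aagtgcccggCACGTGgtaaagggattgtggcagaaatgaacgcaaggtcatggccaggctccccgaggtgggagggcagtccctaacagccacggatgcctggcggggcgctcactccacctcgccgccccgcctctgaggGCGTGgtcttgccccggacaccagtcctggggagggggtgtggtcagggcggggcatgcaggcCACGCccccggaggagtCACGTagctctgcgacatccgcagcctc
TPI1: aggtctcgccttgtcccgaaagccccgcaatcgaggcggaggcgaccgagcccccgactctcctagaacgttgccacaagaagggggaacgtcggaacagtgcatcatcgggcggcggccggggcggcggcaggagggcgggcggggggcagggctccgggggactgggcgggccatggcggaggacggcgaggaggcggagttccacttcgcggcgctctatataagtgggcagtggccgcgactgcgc
The ALDOC stretch held 3 matches of ACGTG, of which a pair overlap in 1 palindrome, and 2 of GCGTG, while the TPI1 stretch held neither. Only 1 start per gene was used, and any other starts were not analysed.

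The first steps moved little. The hexokinases HK1 and HK2, which trap glucose as glucose 6-phosphate, fell by 0.17 (SE 0.042, limma adjusted p = 0.0108) and 0.20 (SE 0.045, limma adjusted p = 0.00583). HK2 read 8.67, 8.77 and 8.69 in shControl against 8.50, 8.51 and 8.50 in shTP63. HK1 no longer passed when shControl replicate 2 was left out (adjusted p = 0.0503), under cyclic loess (adjusted p = 0.255) or under quantile normalization over probe sets with 1 gene (adjusted p = 0.136). GPI, the next isomerase, fell by 0.17 (SE 0.044, limma adjusted p = 0.0143), but did not pass when shControl replicate 3 was left out (adjusted p = 0.0631), when shTP63 replicate 2 was left out (adjusted p = 0.0511) or under cyclic loess (adjusted p = 0.0889).

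PFKP was the 1 enzyme of the list that rose. It encodes the platelet form of phosphofructokinase, the committed step of glycolysis, and read 10.88, 10.89 and 10.94 in shControl against 11.12, 11.14 and 11.17 in shTP63. The difference was 0.24 (SE 0.042, limma adjusted p = 0.00173), or 1.18-fold. The liver form PFKL differed by -0.07 (SE 0.051, limma adjusted p = 0.338) and the muscle form PFKM by -0.08 (SE 0.040, limma adjusted p = 0.154). PFKP's difference exceeded theirs by 0.31 ± 0.029 and 0.32 ± 0.015 (SE). PFKL and PFKM passed as falls when arrays were centred on their medians (adjusted p = 0.0176 and 0.00503).

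The later enzymes were among the brightest genes on the arrays. GAPDH, the dehydrogenase often used as a reference gene, read 13.81, 13.82 and 13.83 in shControl and 13.68, 13.71 and 13.69 in shTP63. It fell by 0.13 (SE 0.040, limma adjusted p = 0.0301), or 1.09-fold. That call was lost without any 1 of the 6 arrays (adjusted p from 0.0577 to 0.098) and in the fit with a replicate block (adjusted p = 0.0613). RefSeq lists 65 pseudogenes named after GAPDH, so its signal may be shared. Fewer are listed for others of the genes, among them LDHA (6), PKM (5), ENO1 (4), LDHB (3) and PGK1, ALDOA and PDK1 (2 each). The same limit applies to those. PGK1, a kinase that makes ATP, differed by 0.00 (SE 0.046), with overlapping groups. ENO1, the common enolase, differed by -0.09 (SE 0.046) and ENO2, the neuronal one, by 0.13 (SE 0.071), neither past the threshold. The pyruvate kinase PKM differed by -0.11 (SE 0.042, limma adjusted p = 0.057). PKM passed as a fall in 5 of 17 alternatives and ENO1 in 2, among them centring on the array median (adjusted p = 0.00289 and 0.0069).

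Of the lactate dehydrogenase subunits, LDHA, the subunit that favours lactate production, read 12.78, 12.77 and 12.77 in shControl and 12.86, 12.91 and 12.85 in shTP63. LDHB read 11.87, 11.87 and 11.87 in shControl against 11.82, 11.77 and 11.67 in shTP63. In neither did the groups overlap, yet LDHA at 0.10 (SE 0.041, limma adjusted p = 0.0832) and LDHB at -0.12 (SE 0.049, limma adjusted p = 0.0824) did not pass. LDHA's difference exceeded that of LDHB by 0.22 ± 0.041 (SE). Centring arrays on their medians gave -0.01 for LDHA (adjusted p = 0.899) and -0.23 for LDHB (adjusted p = 0.00445), so both lay under 0 there. Each subunit was called in 4 of 17 alternatives, LDHA as a rise and LDHB as a fall.

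Of the 7 flux-setting kinases, 3 fell and 4 did not pass (42.9% called, beside 41.5% of all genes). In all 7 the groups did not overlap, as in 51.4% of all genes. PFKFB enzymes make and degrade fructose 2,6-bisphosphate, the strongest activator of phosphofructokinase. PFKFB2 read 8.98, 9.04 and 8.99 in shControl and 8.43, 8.44 and 8.59 in shTP63, and it fell by 0.52 (SE 0.055, limma adjusted p = 9.48e-05). PFKFB3, the form with the highest kinase activity, fell by 0.26 (SE 0.043, limma adjusted p = 0.00113), from 11.15, 11.09 and 11.12 to 10.83, 10.89 and 10.87. PFKFB4 differed by -0.09 (SE 0.046, limma adjusted p = 0.164), and by -0.19 with a call under quantile normalization over all probe sets (adjusted p = 0.00764).

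Pyruvate dehydrogenase kinases switch off the enzyme that sends pyruvate into the citric acid cycle. PDK2, the most widely expressed form, read 9.68, 9.68 and 9.71 in shControl against 8.98, 8.97 and 8.91 in shTP63. It fell by 0.74 (SE 0.042, limma adjusted p = 4.32e-06), or 1.67-fold. PDK1, the form best known as a HIF target, lay higher in all shTP63 arrays, at 8.86, 8.97 and 8.85 against 8.69, 8.78 and 8.78, with a difference of 0.14 (SE 0.052) that did not pass (limma adjusted p = 0.0528). PDK1 passed as a rise in 5 of 17 alternatives, with adjusted p of 0.00917 after cyclic loess. PDK4 differed by 0.19 (SE 0.070, limma adjusted p = 0.0541) at a level of 7.12, near background, and PDK3 by -0.12 (SE 0.052, limma adjusted p = 0.102). PDK4 passed as a rise in 4 of 17 alternatives and PDK3 as a fall in 3. PDK1's difference exceeded that of PDK2 by 0.88 ± 0.045 (SE).

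Of the 13 genes of oxygen sensing and other HIF targets, 4 rose, 6 fell and 3 did not pass (76.9% called, beside 41.5% of all genes). In the brightest bin, which held 7 of the 13, 69.3% of all genes were called and the median size of a difference was 0.22. Their median difference was -0.08, with moves in both directions, and the median size of a difference was 0.37, beside 0.13 for the glycolytic enzymes and 0.12 for all genes. Collagen prolyl hydroxylases, ERO1A and BNIP3 rose, while the HIF alpha subunit EPAS1, the oxygen sensor EGLN1 and the targets NDRG1, BNIP3L, ADM and KDM3A fell.

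HIF1A, the alpha subunit found in most cells, read 11.75, 11.86 and 11.83 in shControl and 11.81, 11.70 and 11.71 in shTP63. These values overlapped, and the difference of -0.08 (SE 0.050) did not pass (limma adjusted p = 0.265), although HIF1A passed as a fall after centring on the array median (-0.18, adjusted p = 0.0192). HIF1A is controlled mainly through protein stability, which arrays do not measure. EPAS1, which encodes HIF-2 alpha, read 10.14, 10.20 and 10.19 against 9.58, 9.61 and 9.64, and it fell by 0.57 (SE 0.042, limma adjusted p = 1.54e-05), or 1.48-fold. The difference between these subunits changed by 0.49 ± 0.050 (SE). EGLN1, the main prolyl hydroxylase that marks HIF alpha for destruction, fell by 0.37 (SE 0.057, limma adjusted p = 0.00079), from 9.89, 10.07 and 10.05 to 9.60, 9.65 and 9.66. EGLN3, a hydroxylase that is itself strongly HIF-induced, differed by -0.05 (SE 0.045, limma adjusted p = 0.391), with overlapping groups. For EGLN3, quantile normalization over all probe sets and centring on the array median each gave -0.16, called as a fall (adjusted p = 0.0169 and 0.017).

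The mitophagy receptors BNIP3 and BNIP3L moved in opposite directions. BNIP3 read 7.77, 7.80 and 7.96 in shControl and 8.19, 8.21 and 8.24 in shTP63, and it rose by 0.37 (SE 0.057, limma adjusted p = 0.000761). BNIP3L, also known as NIX, read 11.90, 11.85 and 11.83 against 11.54, 11.50 and 11.39, and it fell by 0.38 (SE 0.051, limma adjusted p = 0.000355). The gap between their differences was 0.75 ± 0.097 (SE). RefSeq lists 46 pseudogenes named after BNIP3, and the gene overlaps PPP2R2D, so its signal may be shared.

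NDRG1, a gene of differentiation and stress that low oxygen induces in many cell types, had the largest fall of the oxygen-related genes. Its values were 10.53, 10.46 and 10.53 in shControl and 9.90, 9.83 and 9.91 in shTP63. It fell by 0.63 (SE 0.046, limma adjusted p = 1.4e-05), or 1.55-fold. ADM, which encodes the vasodilator peptide adrenomedullin, read 10.49, 10.46 and 10.45 in shControl and 10.21, 10.22 and 10.26 in shTP63, and it fell by 0.24 (SE 0.042, limma adjusted p = 0.00167). KDM3A, a histone H3 demethylase, fell by 0.19 (SE 0.041, limma adjusted p = 0.00533), a call lost after cyclic loess (adjusted p = 0.0879) and after quantile normalization over probe sets with 1 gene (adjusted p = 0.0853). ANKRD37, an ankyrin repeat protein gene, differed by 0.15 (SE 0.063, limma adjusted p = 0.0969), with overlapping groups, and passed in the fit with a replicate block (adjusted p = 0.0464).

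P4HA1 and P4HA2 encode the catalytic alpha subunits of the prolyl 4-hydroxylases that stabilise collagen. P4HA1 read 10.27, 10.36 and 10.31 in shControl and 10.89, 10.97 and 10.89 in shTP63. P4HA2 read 9.98, 10.05 and 10.06 against 10.58, 10.66 and 10.68. In both genes all shTP63 values lay above all shControl values. P4HA1 rose by 0.61 (SE 0.047, limma adjusted p = 1.81e-05) and P4HA2 by 0.61 (SE 0.047, limma adjusted p = 1.88e-05), or 1.52-fold and 1.53-fold, and their differences were 0.00 ± 0.037 (SE) apart.

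ERO1A reoxidises protein disulfide isomerase during disulfide bond formation. It read 11.67, 11.80 and 11.68 in shControl and 12.39, 12.50 and 12.47 in shTP63, so the groups did not overlap. It rose by 0.74 (SE 0.053, limma adjusted p = 1.28e-05), or 1.67-fold, rise number 205 of all genes. P4HA2 and P4HA1 were rises number 341 and 342.

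The promoters of these genes are shown because they made up the 3 largest rises. The same capitals are used, with P4HA1 at chr10:73096867-73097116, minus strand, P4HA2 at chr5:132227092-132227341, minus strand and ERO1A at chr14:52695559-52695808, minus strand (GRCh38.p14).
P4HA1: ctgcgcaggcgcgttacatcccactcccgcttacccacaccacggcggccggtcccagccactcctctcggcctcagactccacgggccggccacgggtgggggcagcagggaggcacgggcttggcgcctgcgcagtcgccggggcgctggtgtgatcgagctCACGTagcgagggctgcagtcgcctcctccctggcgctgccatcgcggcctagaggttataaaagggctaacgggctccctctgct
P4HA2: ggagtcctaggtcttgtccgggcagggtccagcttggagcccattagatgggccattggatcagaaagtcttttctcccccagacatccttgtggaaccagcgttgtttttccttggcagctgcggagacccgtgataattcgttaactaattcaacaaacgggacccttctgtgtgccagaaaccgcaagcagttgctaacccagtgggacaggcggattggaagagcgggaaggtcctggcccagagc
ERO1A: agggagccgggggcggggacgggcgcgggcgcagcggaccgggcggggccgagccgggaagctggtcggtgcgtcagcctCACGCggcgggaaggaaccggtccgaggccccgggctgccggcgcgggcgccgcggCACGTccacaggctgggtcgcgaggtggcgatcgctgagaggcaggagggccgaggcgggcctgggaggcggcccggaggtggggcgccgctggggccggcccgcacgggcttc
P4HA1 held 1 match of ACGTG, ERO1A held 1 of ACGTG and 1 of GCGTG, and P4HA2 held neither. Whether these letters bear on the rises was not tested.

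RefSeq promoters were matched for 33 of the 36 measured genes. Those without one, PFKFB2, BNIP3L and NDRG1, all fell, so the shares by direction below leave out falls only. ACGTG occurred in 42.4% of these (14 promoters), beside 21.1% of the 14230 promoters of genes tested, and GCGTG in 42.4% beside 39.7%. By direction, ACGTG occurred in 3 of 5 promoters of genes that rose, in 6 of 13 of those that fell and in 5 of 15 of those that did not pass. LDHA had the most ACGTG matches, 5, counting both strands of a palindrome, and did not pass. A match is a description of letters, not a sign that HIF binds there. Matches at any other starts of a gene were not counted.

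**Figure D3:**
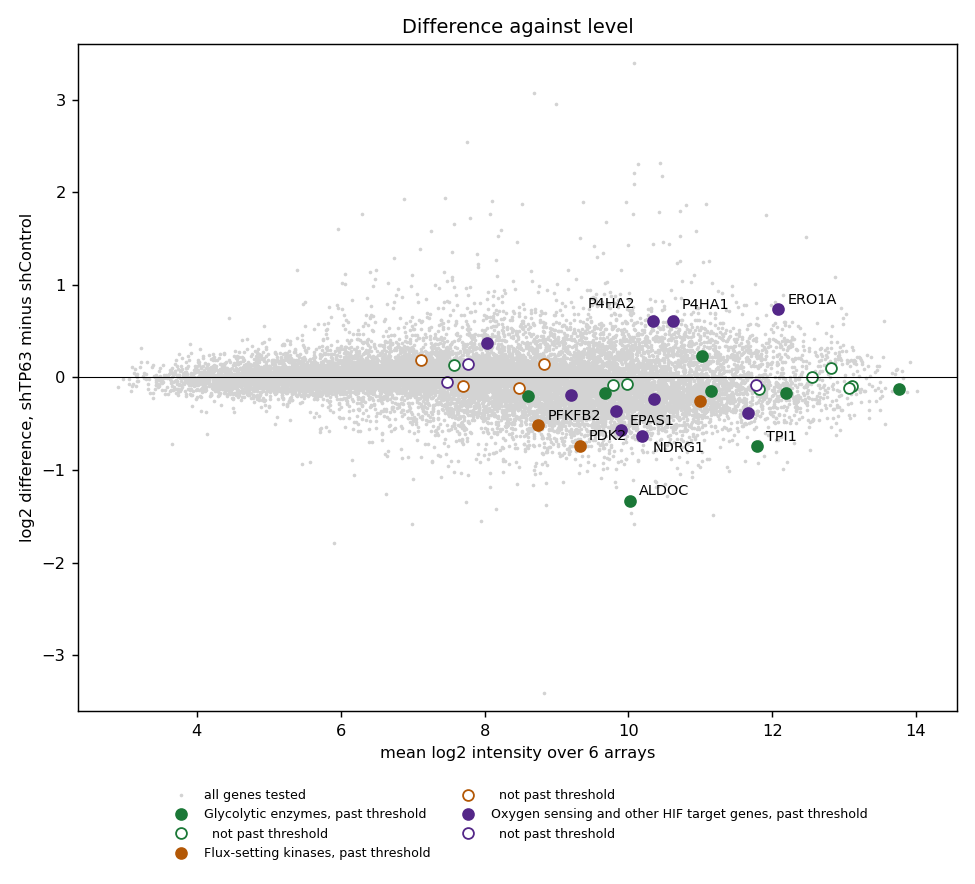
Log2 difference, shTP63 minus shControl (vertical axis), against the mean log2 intensity over the 6 arrays (horizontal axis) for all 18404 genes (grey), with the glycolytic enzymes in green, the flux-setting kinases in orange and the oxygen-related genes in purple. Filled circles passed the threshold; genes with a difference beyond 0.5 in size are named, and most of the enzymes lie at the bright end close to 0.

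Related genes were set against each other by the change in their log2 difference, for all 20 pairs within a family. In an exact two-sided permutation test over the 6 arrays, which with 3 against 3 cannot go below p = 0.1, 17 of the 20 pairs reached that smallest value (adjusted over the pairs, 0.118). Reaching it means only that the groups did not overlap, as they did not for 51.4% of single genes; the share among unrelated pairs was not computed, and pairs within a family share genes. The largest gaps were between ALDOA and ALDOC, between PDK4 and PDK2 (0.93 ± 0.085, SE), between PDK1 and PDK2 and between BNIP3 and BNIP3L. The pairs that did not reach it were P4HA1 with P4HA2, PFKL with PFKM, and PDK1 with PDK4. The gap of HK1 over HK2 was 0.04 and that of PFKFB4 over PFKFB3 0.17, and quantile normalization over all probe sets moved these to 0.11 and 0.03. The gap of EGLN3 over EGLN1 went from 0.31 to 0.16 under that setting. There the gap of PDK4 over PDK2 went from 0.93 to 0.79, smaller than that of PDK1 over PDK2 at 0.85. The gaps of ENO2 over ENO1, PFKFB4 over PFKFB2 and PDK3 over PDK2 also shrank, to 0.12, 0.34 and 0.54.

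**Figure D4:**
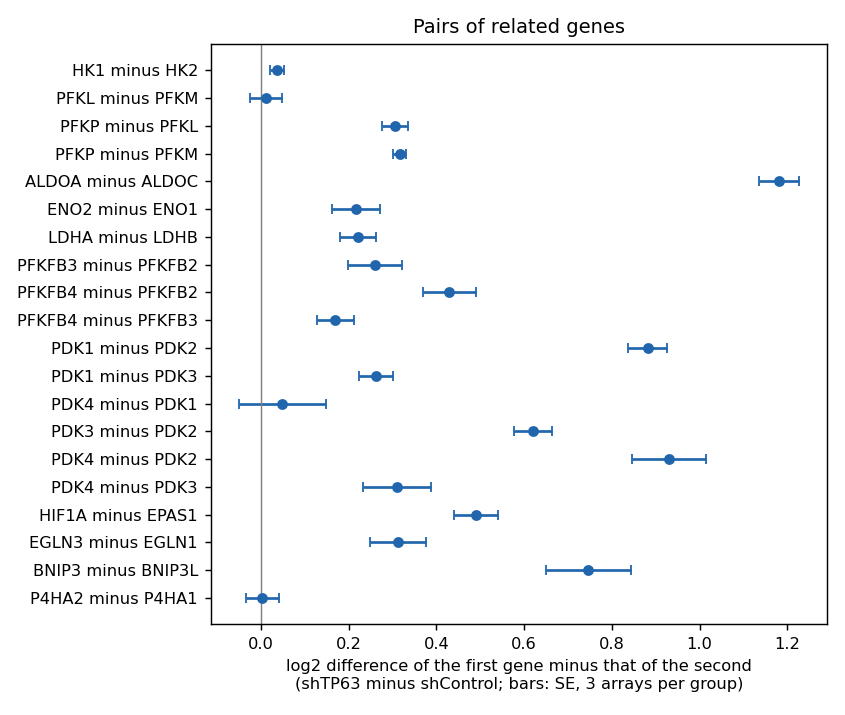
Difference of 1 gene minus that of a related gene (horizontal axis, log2 units, shTP63 minus shControl) for 20 pairs, each written so that the value is above 0. Bars are SE without limma's moderation, 3 arrays per group. ALDOA minus ALDOC is largest at 1.18, and P4HA2 minus P4HA1 lies at 0.00.

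A further 65 genes of glucose and pyruvate handling, oxygen sensing and the HIF response were listed, of which 57 were measured. Of these, 17 rose and 19 fell (63.2% called, beside 41.5% of all genes), with a median difference of 0.02. The 3 rises with the smallest adjusted p were TMEM45A, a membrane protein gene induced by low oxygen (1.02, SE 0.063), STC2, a secreted glycoprotein (0.66, SE 0.049), and PLOD2, a collagen lysyl hydroxylase (0.65, SE 0.059). The 3 falls were DDIT4, an inhibitor of mTORC1 (-0.67, SE 0.049), MXI1, an antagonist of MYC (-0.63, SE 0.048), and DLAT, a core subunit of pyruvate dehydrogenase (-0.52, SE 0.042). Limma adjusted p for these 6 genes ranged from 6.02e-06 to 4.25e-05. Over all genes 16.4% rose and 25.1% fell. Among the 32 genes of oxygen sensing and the HIF response 15 rose (46.9%) and 9 fell (28.1%). Among the 25 of transport and metabolism 2 rose (8%) and 10 fell (40%). The latter rises were those of the glucose transporters SLC2A3 (0.47, SE 0.065) and SLC2A1 (0.25, SE 0.057), named after their values were seen. SLC2A3 shares near-identical sequence with SLC2A14, so its value is uncertain, and SLC2A1 lost its call when arrays were centred on their medians.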

How the data were processed

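Gene expression was measured on 6 arrays, 3 shControl and 3 shTP63, grouped by sample title. Per the submitters' processing notes, values were made with RMA in R 2.15.1; genome build and further filters are not given in the sources used here. The deposited values are intensities on a linear scale (array medians 173 to 190), of which log2 was taken. Of 32321 probe sets, the supplied platform annotation assigns 19158 to 1 gene, 1388 to several and leaves 11775 unlisted. The brightest single-gene probe set stood for each of 18404 genes.

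The comparison used limma 3.58.1 under R 4.3.3 (lmFit, eBayes, two-sided, no covariate). The steps were tested on simulated data. Members and lists were chosen with earlier results of these data known, and the pairs of related genes were added after seeing the data. Every member with a value is named, with the 3 rises and 3 falls of smallest adjusted p from the further list. Alternatives changed normalization, filter, probe set choice, prior, weights, threshold and replicates. Precision rests on the number of arrays (median within-group SD 0.065). Replicate numbers were not taken as pairs, and the labels do not say whether they are.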

Additional observations from a re-analysis of the deposited data

How the results depend on the processing

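Of the 21 genes called, 16 kept call and direction in all 17 alternatives: HK2, PFKP, ALDOC, TPI1, PFKFB2, PFKFB3, PDK2, EPAS1, EGLN1, BNIP3, BNIP3L, NDRG1, P4HA1, P4HA2, ADM and ERO1A. Of the 15 not called, 2 (PGK1 and ENO2) were called in none. Array medians over all probe sets averaged 7.45 in shControl and 7.56 in shTP63, and centring on them takes this gap out of every gene alike. Centring shifted the median over all genes from -0.01 to -0.12. Over all genes 1782 then rose and 7932 fell (3015 and 4619 on the deposited scale). Centring also gave 12 falls among glycolytic enzymes, 5 among flux-setting kinases and 8 rises among the further pathway genes. Falls made up 60.5% of calls over all genes, 81.7% after centring, 69.0% after quantile normalization over all probe sets, 49.7% with cyclic loess and 52.8% with quantile normalization limited to probe sets with 1 gene. Quantile normalization over all probe sets gave 2 rises among glycolytic enzymes and 5 falls among flux-setting kinases. Cyclic loess gave 2 rises and 4 falls among the enzymes and 1 rise among the kinases, and quantile normalization over probe sets with 1 gene gave 1 rise among the kinases. A trended robust prior and leaving out the dimmest 40% each gave 2 rises among the enzymes and 2 among the kinases, and array weights 2 among the kinases. A threshold of 0.01 left 3 falls among the enzymes and 11 rises among the further genes. With each array left out, falls among the enzymes ranged from 4 to 7 and rises among the kinases from 0 to 1. The cause of the gap between array medians, and of the moves under settings other than centring, was not tested.

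The replicate number as a block gave 2832 rises and 4333 falls over all genes, 1 rise and 6 falls among the enzymes and 5 rises and 6 falls among the oxygen-related genes. Same-numbered samples correlated at -0.15, -0.04 and 0.13 in their deviations from the group means, so the numbers are not taken as pairs. Signal over background was lowest for PDK4, at 7.12 against 6.76.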

Other observations

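Several genes of the further list act on the entry of pyruvate into mitochondria or on its use there. They are given here after their values were seen. MPC1 and MPC2, the subunits of the mitochondrial pyruvate carrier, fell by 0.85 (SE 0.079) and 0.60 (SE 0.053), with limma adjusted p of 4.97e-05 and 3.82e-05. PDHB, a subunit of pyruvate dehydrogenase, fell by 0.38 (SE 0.060) and the phosphatase PDP1 by 0.43 (SE 0.051), whereas the partner subunit PDHA1 differed by 0.02 (SE 0.045, limma adjusted p = 0.799). MPC1, MPC2, PDHB and PDP1 kept their calls in all 17 alternatives. Of 25 measured genes of transport and metabolism 48% were called, beside 41.5% of all genes.

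Among regulators of HIF, ARNT, the partner of the alpha subunits, fell by 0.25 (SE 0.042, limma adjusted p = 0.00117). HIF1AN, the asparagine hydroxylase that blocks HIF activity, fell by 0.34 (SE 0.060, limma adjusted p = 0.00175). CITED2 also fell, by 0.27 (SE 0.044, limma adjusted p = 0.000901). VHL rose by 0.15 (SE 0.047, limma adjusted p = 0.0357), a call lost in 9 of 17 alternatives. ARNT2 and HIF3A were not called (limma adjusted p = 0.375 and 0.9). PLOD1, a lysyl hydroxylase like PLOD2, rose by 0.35 (SE 0.055, limma adjusted p = 0.000761). These were also named after their values were seen.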
